A study of Homo sapiens with 6 samples.

Results

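The 10 imprinted genes described here are H19, IGF2, CDKN1C, PHLDA2 and KCNQ1OT1 from chromosome 11, PEG10, MEST and GRB10 from chromosome 7, MEG3 from chromosome 14 and NNAT from chromosome 20. All 10 symbols were found among the 61487 gene IDs of the count table, and 7 of the 10 had enough counts to be tested, among 16591 tested genes in all. H19 was chosen because it was among the largest falls in both ACK1 groups, so its levels against Control are given as a description, with no test. The other 9 genes were chosen by name as imprinted genes.

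Messenger RNA was sequenced from H2170, an established human cell line of lung squamous cell carcinoma, to examine gene regulation by condensates of ACK1, a cytoplasmic tyrosine kinase whose gene is TNK2. The 3 groups, of 2 libraries each, were cells with GFP only (Control), with ACK1 (WT)-GFP (WT) and with ACK1 (IDRmut)-GFP (IDRmut). The labels do not list the altered residues of IDRmut, and they name no promoter, clone or time after introduction for the constructs. Whether replicates were separate cultures is not said either, and the p-values then rest on a spread among libraries that may be technical.

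An imprinted gene is transcribed mainly from the copy inherited from 1 parent, and the choice is kept by DNA methylation at a control region laid down in the egg or the sperm. H19, a long noncoding RNA, and IGF2, which encodes a growth factor, share such a region on chromosome 11: where it is unmethylated, the insulator protein CTCF binds it and separates IGF2 from enhancers that then serve H19. A neighbouring domain is ruled by KCNQ1OT1, a paternally expressed antisense RNA that silences CDKN1C, PHLDA2 and other genes on its own chromosome. The counts do not separate parental copies, so they give the total level of each gene and not its imprint.

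The sequences below show the start of H19, which fell most among the 10, a start of MEST, and the small RNAs carried by both transcripts. MEST was the other gene among the 10 that was lower in both ACK1 groups at an edgeR adjusted p under 0.05. It fell far less than H19, with 63.5% of the Control level left in WT and 78.1% in IDRmut. The promoters run from 250 bases before to 50 bases after a transcript start and come from RefSeq (GRCh38.p14), whose table matched 4 of the 10 genes (H19, MEST, GRB10 and MEG3). Capitals mark the GC box GGGCGG on either strand.
H19 promoter, chr11:2001217-2001516, minus strand: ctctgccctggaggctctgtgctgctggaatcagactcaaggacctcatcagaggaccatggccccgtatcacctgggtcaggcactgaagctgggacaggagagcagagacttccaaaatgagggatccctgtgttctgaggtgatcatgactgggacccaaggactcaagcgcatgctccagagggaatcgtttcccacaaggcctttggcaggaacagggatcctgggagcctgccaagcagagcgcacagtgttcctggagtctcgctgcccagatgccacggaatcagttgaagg
MEST promoter, chr7:130491835-130492134, plus strand: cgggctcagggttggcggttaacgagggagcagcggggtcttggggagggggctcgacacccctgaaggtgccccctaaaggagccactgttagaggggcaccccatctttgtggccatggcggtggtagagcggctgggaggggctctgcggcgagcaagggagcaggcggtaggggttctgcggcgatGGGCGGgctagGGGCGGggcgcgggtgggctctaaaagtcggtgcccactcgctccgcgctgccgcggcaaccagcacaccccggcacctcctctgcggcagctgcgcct

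The H19 stretch held 6 CpG pairs and 57.7% G and C, while the MEST stretch, which had the most CpG pairs of 5 listed MEST starts, held 25 and 70.3%. The median over 35116 promoters of this length was 14 CpG pairs. The MEST stretch carried 2 GC boxes, beginning 60 and 49 bases before the start, and the H19 stretch carried none; 45% of all promoters hold at least 1. The letters TTCNNNGAA, the palindrome read by STAT factors, and TATAAA, read on both strands, were in neither stretch, and 7.66% and 11.5% of all promoters hold them. An alternative MEST start further upstream (chr7:130486097-130486396) held TTCNNNGAA at position 4 of the transcript. A match is a description of the letters and not of a bound factor.

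H19 is the precursor of miR-675, and an intron of MEST carries miR-335. Their mature forms are shown 5′ to 3′ with the seed, bases 2 to 8, in capitals.
hsa-miR-675-5p: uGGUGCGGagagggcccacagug
hsa-miR-675-3p: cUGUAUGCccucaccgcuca
hsa-miR-335-5p: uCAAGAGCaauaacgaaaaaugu
hsa-miR-335-3p: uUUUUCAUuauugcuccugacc
No 2 of these 4 share a seed. Among 2370 mature names in the RefSeq table, hsa-miR-4466 has the seed of miR-675-5p, and the other 3 seeds recur under no other name. The rows of MIR675 and MIR335 held 0 counts in all 6 libraries. The libraries were made from polyadenylated RNA and MIR675 lies wholly within H19, so these rows say nothing of the mature RNAs.

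The libraries held between 19128111 and 33540998 counts, the second WT library being the deepest. TNK2, which checks the labels, stood at 41.1 and 43.1 CPM in Control, 3514 and 3613 in WT, against 1762 and 1455 in IDRmut, where CPM is counts per 1 M counts of the library after TMM scaling. WT and IDRmut therefore differed in ACK1 transcript level as well as in sequence, and these cannot be told apart. Of 8 squamous markers 7 were tested. The sum of all 8, mostly KRT14, was 1877 to 1882 CPM in Control, 961 to 986 in WT and 1390 to 1515 in IDRmut. At an edgeR adjusted p under 0.05, the step from Control to WT gave 2 rises and 4 falls among the 7 tested. Their median log2 fold change was -0.53. From Control to IDRmut there were 4 rises and 2 falls, with a median of 0.36. The lower squamous sum in IDRmut thus did not stand for most of the list. Among the leukocyte markers CD3E and TYROBP had no count, and the sum of the list stayed between 0.254 and 0.736 CPM. The 5 endothelial markers summed to 218 to 224 CPM in Control, 46.3 to 47.5 in WT and 96.6 to 99.5 in IDRmut, nearly all from CDH5. The 6 fibroblast markers summed to 821 to 840 CPM in Control, 669 to 677 in WT and 852 to 912 in IDRmut. Nearly all of this came from COL1A2. Among the 4 tested, the same threshold gave 1 rise and 1 fall for WT against Control, with a median of 1.06. For IDRmut against Control it gave 1 rise and 0 falls, with a median of 0.80. The fibroblast sum in WT thus ran against the median of its tested markers. All 4 alveolar markers and 3 of 4 neuroendocrine markers were too low to test, and those sums reached at most 0.614 and 1.35 CPM. The squamous, endothelial and fibroblast sums differed between the groups, and their part in the results was not tested.

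Differences were tested with the quasi-likelihood test of edgeR on 16591 genes, and "called" means that the p adjusted by Benjamini-Hochberg over these genes was under 0.05. Levels are CPM, and differences are log2 fold changes ± SE. In WT against Control 35% of all tested genes were called, in IDRmut against Control 31.6% and in WT against IDRmut 26.5%. Calls were thus common, and the counts below are read against these shares. Of the 6 tested members other than H19, 2 were called higher and 1 lower in WT than in Control, where 17.4% and 17.6% of all genes were. None was higher and 4 were lower in IDRmut than in Control, where 15.6% of all genes were higher and 15.9% lower. In WT 3 were higher and 1 was lower than in IDRmut, where 14.2% and 12.3% of all genes were. Among these 6 members the libraries of WT and Control did not overlap for 6, as for 69.2% of all tested genes. IDRmut and Control did not overlap for 5 of the 6 (63.3% of all genes), nor did WT and IDRmut for 5 of the 6 (61.5%).

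H19 was the member whose level differed most between groups. The gene (ENSG00000130600) occupies chr11:1995176-2001470 of GRCh38 on the minus strand, and 7.4% of its exon bases also belong to other annotated genes. The Control libraries held 1189 and 1066 H19 counts, or 60.3 and 57.3 CPM. The WT libraries held 146 and 214 counts, or 7.15 and 6.26 CPM, and the IDRmut libraries 132 and 214 counts, or 6.48 and 9.73 CPM. All 4 ACK1 libraries were thus far below both Control libraries, and the WT and IDRmut libraries overlapped. As group means the levels were 58.8 ± 2.11 CPM in Control, 6.71 ± 0.631 in WT and 8.11 ± 2.30 in IDRmut (SD, n = 2). In the fit 11.2% of the Control level was left in WT and 13.9% in IDRmut, which are log2 fold changes of -3.15 ± 0.11 and -2.85 ± 0.11. In these bulk samples fewer cells with H19 and less H19 RNA per cell cannot be told apart.

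WT and IDRmut were not told apart by their H19 level. The difference, WT over IDRmut, was -0.30 ± 0.15 on the log2 scale, with a 95% interval from -0.61 to 0.01 and an edgeR adjusted p of 0.15. The IDRmut libraries set this value: their H19 levels differed 1.5-fold, against 1.05-fold in Control and 1.1-fold in WT. Without IDRmut replicate 1 the difference was -0.56 (edgeR adjusted p 0.00091) and without IDRmut replicate 2 it was 0.03 (edgeR adjusted p 0.93).

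**Figure D1:**
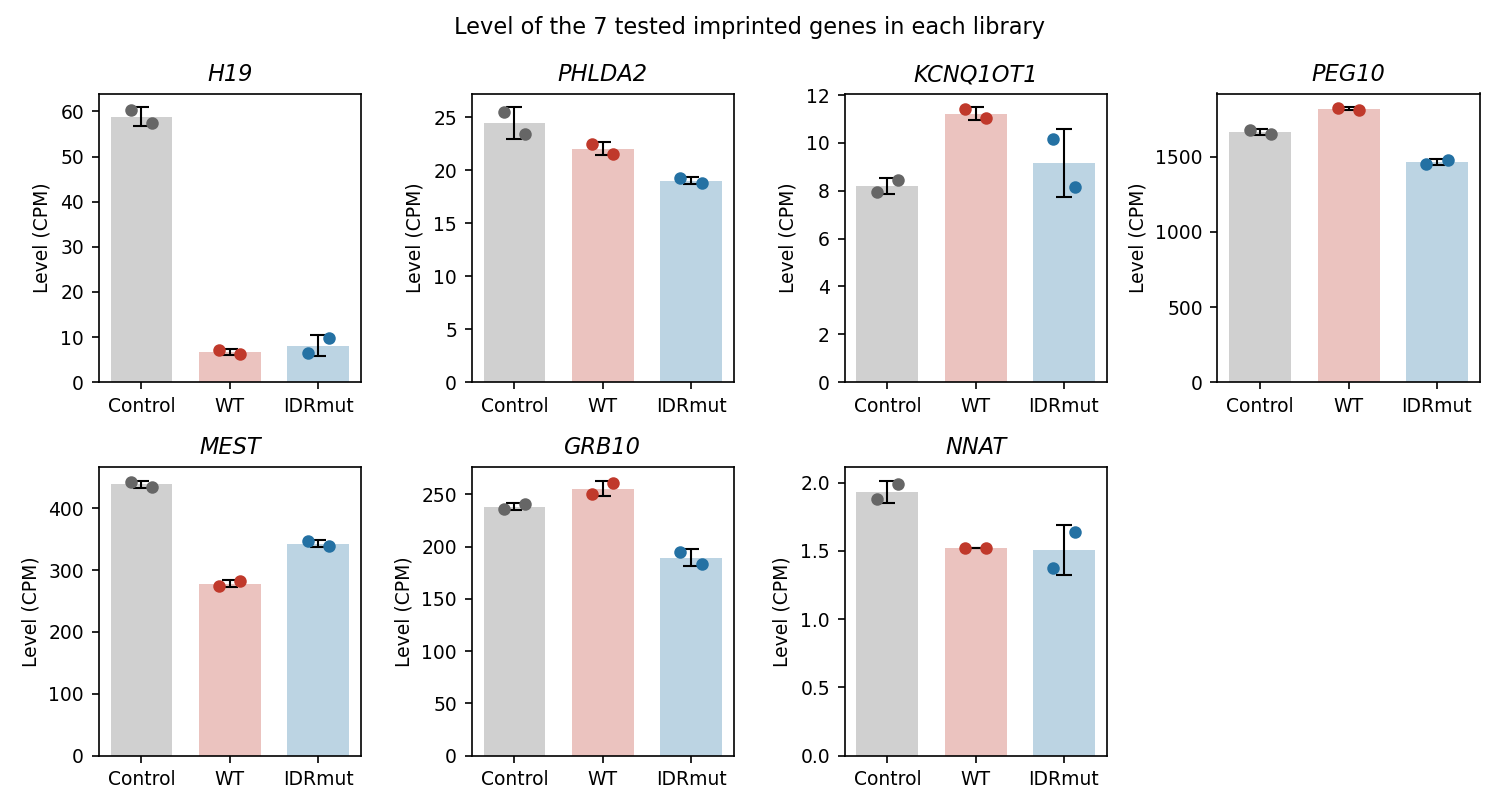
Level in CPM (linear axis from 0) of the 7 tested imprinted genes in the Control, WT and IDRmut groups; dots are libraries, bars group means and whiskers the SD of 2 libraries. H19 dropped from 58.8 to 6.71 and 8.11 CPM, MEST was lower in both ACK1 groups, and PEG10 and GRB10 were highest in WT and lowest in IDRmut.

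IGF2, the fetal growth factor on the other side of the shared control region, had 0 counts in all 6 libraries. The same was true of its antisense transcript IGF2-AS, of the readthrough gene INS-IGF2 and of ENSG00000284779, an ID that overlaps it. A count of 0 over a group allows up to 0.0783 CPM in Control, 0.0549 in WT and 0.0708 in IDRmut, taking 3 counts as the limit and counting error only. In GENCODE release 29, 75% of the IGF2 exon bases overlap other gene entries, and how reads falling on several genes were counted is not given in the sources used here. No change of IGF2 beside that of H19 could therefore be measured.

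CDKN1C and PHLDA2, maternally expressed genes of the neighbouring domain, encode a cyclin-dependent kinase inhibitor and a PH-domain protein that restrains placental growth. CDKN1C was close to the detection limit, with 0 counts in both Control libraries, 0 and 8 in WT and 2 and 4 in IDRmut, and was not tested. Pooled over a group, its level was 1.87 times (WT) and 1.81 times (IDRmut) the limit that 3 counts in the Control group would set. These ratios leave out the counting error on the 8 and 6 counts, so they are no lower bounds. All 8 WT counts came from 1 library, and no rise of CDKN1C is established. PHLDA2 had 25.5 and 23.4 CPM in the Control libraries, 22.5 and 21.6 in those of WT and 19.3 and 18.8 in those of IDRmut. Its libraries fell into 3 levels that did not overlap, Control the highest and IDRmut the lowest. In IDRmut PHLDA2 fell by 0.36 ± 0.08, a log2 value (edgeR adjusted p 0.0014). The WT value of -0.16 ± 0.07 had an edgeR adjusted p of 0.11. Between WT and IDRmut the difference of 0.21 ± 0.07 had an edgeR adjusted p of 0.047, and it was not called under 10 of 13 other settings, leaving out any single library among them (edgeR adjusted p 0.055 to 0.21).

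KCNQ1OT1, the antisense RNA that rules this domain, was higher in WT. The Control libraries stood at 7.96 and 8.44 CPM, WT at 11.4 and 11 and IDRmut at 10.2 and 8.14. The WT libraries were above all others, and the IDRmut libraries were spread from the Control level to near that of WT. KCNQ1OT1 rose by 0.45 ± 0.11 in WT over Control (edgeR adjusted p 0.0048), and without Control replicate 1 the value was 0.40 with an edgeR adjusted p of 0.062. In IDRmut its difference from Control was 0.15 ± 0.12 (edgeR adjusted p 0.37), and that between WT and IDRmut was 0.29 ± 0.11 (edgeR adjusted p 0.053). The last value was 0.45 without IDRmut replicate 1 (edgeR adjusted p 0.0046, called) and 0.14 without IDRmut replicate 2 (edgeR adjusted p 0.44). KCNQ1, the potassium channel gene in which KCNQ1OT1 lies, had 1 count in the second WT library and 0 elsewhere, so the KCNQ1OT1 counts did not come with KCNQ1 exon counts. Of the other genes of this domain, SLC22A18, a membrane transporter gene, held 2.74 and 3.17 CPM in Control, 1.22 and 2.25 in WT, against 3.78 and 2.87 in IDRmut. Its value of -0.67 ± 0.24 in WT (edgeR adjusted p 0.041) was lost with DESeq2, without either Control replicate and without WT replicate 1. KCNQ1OT1 spans 91667 bases, and its level per length was the lowest of the tested members, at 0.0895 CPM per kilobase of exon in Control.

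MEST, also called PEG1, a paternally expressed gene of the alpha/beta-hydrolase family, fell in both ACK1 groups and fell further in WT. The Control libraries stood at 443 and 435 CPM, WT at 275 and 282 and IDRmut at 347 and 339. The 3 groups were well apart, with WT lowest. The log2 fold changes against Control were -0.66 ± 0.04 in WT and -0.36 ± 0.04 in IDRmut, with edgeR adjusted p of 2.1e-10 and 6.2e-07, which leaves 63.5% and 78.1% of the Control level. The WT over IDRmut difference was -0.30 ± 0.04 (edgeR adjusted p 7.0e-06). MEST lies on chromosome 7 from 130486171 to 130506465, and 27.4% of its exon bases overlap genes on the opposite strand. One of these, COPG2, a coat protein subunit gene, also fell, with -0.32 in WT and -0.25 in IDRmut (edgeR adjusted p 0.00013 and 0.0017), while the antisense RNA MESTIT1 held 3 counts in the first WT library, 1 in the second IDRmut library and 0 elsewhere. Reads of overlapping genes could not be separated, and the part of COPG2 in the MEST value was not tested.

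PEG10, a paternally expressed gene derived from a retrotransposon, was the most abundant member, and its level moved in opposite directions in the 2 ACK1 groups. The Control libraries had 1679 and 1651 CPM, the WT libraries 1827 and 1814, and the IDRmut libraries 1451 and 1477. Replicates lay within 1.02-fold of each other in every group, and the groups did not overlap. The rise in WT was small, 0.13 ± 0.03 on the log2 scale (edgeR adjusted p 0.0037), and it was lost without Control replicate 2 (0.12, edgeR adjusted p 0.065) and without WT replicate 1 (0.12, edgeR adjusted p 0.053). The fall in IDRmut was -0.19 ± 0.03 (edgeR adjusted p 0.00021). Between WT and IDRmut the difference was 0.31 ± 0.03 (edgeR adjusted p 9.6e-07), or 1.24-fold. SGCE, the sarcoglycan gene that starts beside PEG10 on the opposite strand, ranged from 74.5 to 80.8 CPM, and none of its differences was called; that between WT and IDRmut was 0.02 ± 0.05.

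GRB10, which encodes an adaptor that restrains insulin and IGF1 receptor signalling, showed a pattern like that of PEG10. Control had 236 and 241 CPM, WT 250 and 261 and IDRmut 195 and 184. Both IDRmut libraries were below all others, and WT was slightly above Control. In IDRmut GRB10 fell by 0.33 ± 0.04 in log2 terms (edgeR adjusted p 8.3e-06) and was 1.35-fold higher in WT than in IDRmut (0.43 ± 0.04, edgeR adjusted p 4.1e-07). In WT against Control the value was 0.10 ± 0.04 with an edgeR adjusted p of 0.054, and this difference was called under 6 of 13 other settings, with adjusted p from 0.0042 to 0.45. Of all tested genes 1.26% were called in opposite directions against Control and also between WT and IDRmut; PEG10 met that description and GRB10 did not.

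NNAT, a small membrane proteolipid of the nervous system, and MEG3, a maternally expressed long noncoding RNA of chromosome 14, had low counts. NNAT held between 28 and 52 counts per library, or 1.37 to 1.99 CPM. Its differences from Control were -0.34 ± 0.22 in WT and -0.35 ± 0.23 in IDRmut (edgeR adjusted p 0.25 and 0.28), with 95% intervals from -0.81 to 0.12 and -0.84 to 0.14, which leave room for a fall as large as that of MEST. BLCAP, the gene whose intron holds NNAT, fell in WT by 0.45 ± 0.05 on the log2 scale (edgeR adjusted p 4.3e-06) and in IDRmut by 0.17 ± 0.05 (edgeR adjusted p 0.021). The IDRmut call was lost under 5 settings, without either Control replicate and without IDRmut replicate 1 among them, and WT was lower than IDRmut, with -0.28 ± 0.05 (edgeR adjusted p 0.00094). MEG3 had 1 count in the first WT library, 2 in the second IDRmut library and 0 in the other 4, and was not tested.

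Compared per length of exon, PEG10 was highest in Control at 249 CPM per kilobase, followed by MEST at 91.5. PHLDA2 at 25.6, GRB10 at 24.3 and H19 at 20.3 came next. NNAT at 1.45 and KCNQ1OT1 were far lower. In WT and IDRmut H19 stood at 2.31 and 2.80, so that it moved from the level of PHLDA2 and GRB10 towards that of NNAT. The values of PHLDA2 and GRB10 in Control are too close to be ordered, given the spread of 25.5 to 23.4 CPM between the PHLDA2 libraries.

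**Figure D2:**
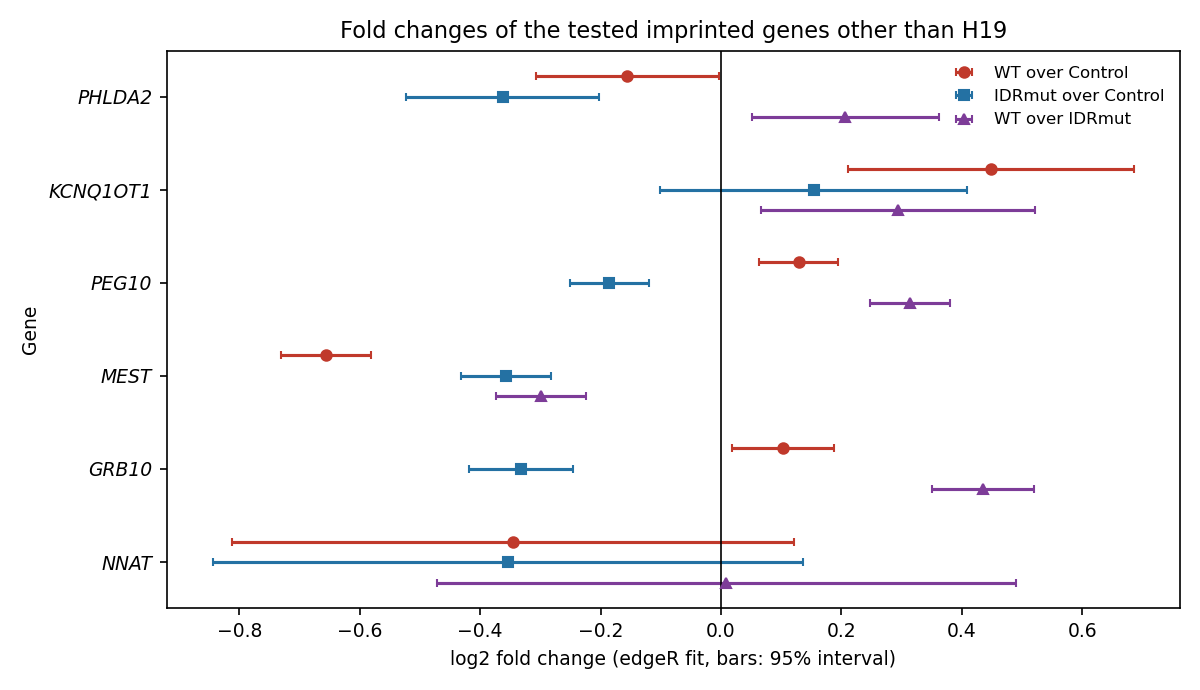
Log2 fold change (horizontal axis) of the 6 tested members other than H19 in the 3 comparisons, from the edgeR fit; bars are 95% intervals. MEST lies left of 0 in all 3 comparisons, PEG10 and GRB10 lie left of 0 in IDRmut over Control and right of 0 in WT over IDRmut, and the NNAT intervals all include 0.

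Of the 5 tested genes closest to H19, a number set after their values were seen, 3 were called lower in WT and 3 in IDRmut. Of all tested genes 17.6% and 15.9% were. TNNI2, among those lower in WT, passed the count filter only through Control, its highest group. Its call thus rests partly on how it was selected and is no support for a fall. The closest gene of all was called in neither group. MRPL23, a mitochondrial ribosomal protein gene 10.7 kb away, had log2 fold changes of 0.22 ± 0.12 in WT and 0.05 ± 0.12 in IDRmut (edgeR adjusted p 0.15 and 0.79). The next 4, LSP1, PRR33, TNNI2 and SYT8, lie 102.9 to 157.7 kb away on the same side as MRPL23. Beyond them on that side CTSD, ENSG00000250644 and IFITM10, 230.6 to 244.6 kb away, were called higher in both ACK1 groups. The IDRmut call of ENSG00000250644 was lost under 6 of 13 other settings. On the IGF2 side the closest tested genes were the pseudogene RPL26P30, 333.7 kb away, and then CD81, a tetraspanin, and TSSC4, and none of these was called. Among 71 tested genes within 2 Mb, 11 rose and 14 fell in WT and 10 rose and 12 fell in IDRmut, 35.2% and 31.0% of them against 35% and 31.6% of all genes. The median was -0.00 in WT and -0.04 in IDRmut. The 2 Mb around H19 as a whole thus had about the same share of called genes as the genome.

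LSP1, an actin-binding protein gene known from leukocytes, lies 102.9 kb from H19 and fell in both ACK1 groups. The libraries held 6.54 and 6.13 CPM in Control, 2.2 and 2.22 in WT, against 2.99 and 3.14 in IDRmut, with log2 fold changes of -1.51 ± 0.15 and -1.05 ± 0.15 (edgeR adjusted p 4.1e-07 and 3.2e-05). PRR33, TNNI2 and SYT8 were named after their values were seen, and PRR33 and TNNI2 had few counts. PRR33, within the span of LSP1, went from 1.31 CPM in Control to 0.445 in WT and 0.494 in IDRmut, and TNNI2, a fast-muscle troponin gene, from 0.787 to 0.254 and 0.499 (means of 2 libraries). Their falls in WT, -1.50 ± 0.33 and -1.59 ± 0.43, had edgeR adjusted p of 0.0017 and 0.0080. TNNI2 could be tested only because its highest group, Control, passed the filter, so its adjusted p is given as a description. The TNNI2 call was lost with DESeq2, without Control replicate 2 and without WT replicate 2. The fall of PRR33 in IDRmut, -1.39 ± 0.34 (edgeR adjusted p 0.0050), was lost with DESeq2 and without Control replicate 2. SYT8, a synaptotagmin gene, had log2 fold changes of -0.34 in WT and -0.58 in IDRmut (edgeR adjusted p 0.068 and 0.0072).

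Further out, the genes with the smallest adjusted p within 2 Mb moved in both directions. IFITM10, a transmembrane protein gene 244.6 kb away with 22.2% of its exon bases overlapped, rose by 1.41 ± 0.19 in WT and 1.51 ± 0.20 in IDRmut. PKP3, the desmosomal plakophilin, rose by 1.75 ± 0.23 in WT, and CARS1, a cysteinyl-tRNA synthetase, by 0.25 ± 0.06 in WT, a call lost without WT replicate 2, and 0.38 ± 0.06 in IDRmut. HRAS, the small GTPase, fell by 0.53 ± 0.07 in IDRmut on the log2 scale. The interferon-inducible genes IFITM1 and IFITM2, whose annotated exons overlap each other, fell in WT by 0.54 and 0.45 on the log2 scale. In IDRmut IFITM1 was higher than in Control by 0.18 (edgeR adjusted p 0.011), a call lost without Control replicate 1, and IFITM2 had a value of -0.09 (edgeR adjusted p 0.24). ENSG00000250644, an entry with no current name that shares 49.2% of its exon bases with CTSD, IFITM10 and others, rose by 1.84 in WT. The other rises and falls given for these genes were called by edgeR's quasi-likelihood test, with adjusted p of at most 0.0019.

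**Figure D3:**
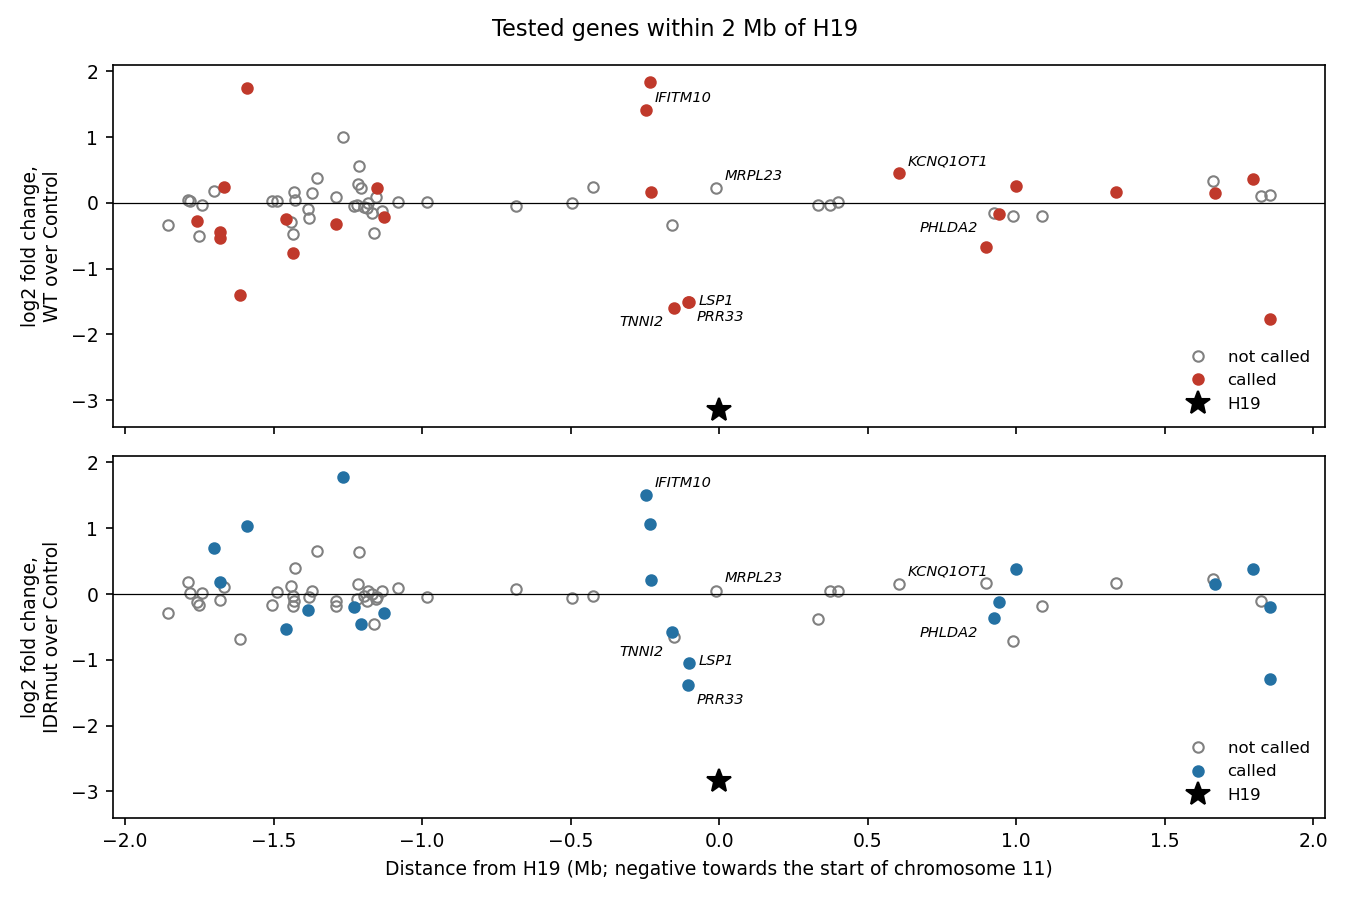
Log2 fold change of each tested gene within 2 Mb of H19 against its distance from H19 in Mb, for WT over Control (upper panel) and IDRmut over Control (lower panel); filled dots were called, open dots were not, and the star is H19. MRPL23 sits beside H19 near 0, and LSP1 and PRR33 lie below -1 in both panels.

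Imprinted genes beyond the 10 showed no common direction. A list of 55 others, of which 53 were in the table, had 28 tested genes, 12 with no count in any library and 23 with at most 10 counts in every library. In WT 6 of the 28 rose and 7 fell, and in IDRmut 4 rose and 6 fell, 46.4% and 35.7% of them against 35% and 31.6% of all genes. RTL1, among the rises in both groups, passed the count filter only through WT, where it was highest. Their median log2 fold changes were -0.06 and -0.05, and over all tested genes 0.00 in both. WT was higher than IDRmut for 5 and lower for 7. The imprint of several of these genes is known from some tissues only.

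Of 13 tested genes listed as maternally expressed, with PHLDA2 and GRB10 but without H19, 2 rose and 4 fell in WT, and 0 rose and 7 fell in IDRmut. These are 46.2% and 53.8% of them, against 35% and 31.6% called among all genes, and the medians were -0.11 and -0.18. NTM, a neuronal adhesion molecule at the other end of chromosome 11, went from 142 and 134 CPM in Control to 42.3 and 39.3 in WT and 60.9 and 64.3 in IDRmut. Its log2 fold changes were -1.77 ± 0.05 and -1.14 ± 0.05 (edgeR adjusted p 1.0e-13 and 4.2e-11). TP73, a transcription factor of the p53 family, fell by 0.93 and 0.87 on the log2 scale. CPA4, a carboxypeptidase gene near MEST, stood at 414 and 428 CPM in Control, 431 and 419 in WT, against 296 and 308 in IDRmut. It fell in IDRmut by 0.48 ± 0.04 (edgeR adjusted p 3.4e-08), as did PHACTR2 by 0.41 ± 0.06 (edgeR adjusted p 7.9e-05), and both were higher in WT than in IDRmut, by 0.49 and 0.69.

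The 21 tested genes listed as paternally expressed held MEST, PEG10, KCNQ1OT1 and NNAT. In WT 6 rose and 4 fell and in IDRmut 4 rose and 3 fell, with a median of -0.04 in each. These are 47.6% and 33.3% of them, against 35% and 31.6% called among all genes, so the IDRmut share was near that of all genes. DIRAS3, a growth-restraining small GTPase, went from 6.24 and 7.37 CPM in Control to 10.4 and 8.98 in WT and 16.8 and 15.1 in IDRmut. It rose by 1.23 ± 0.12 in IDRmut (edgeR adjusted p 3.5e-07) and was lower in WT than in IDRmut by 0.74 on the log2 scale. PLAGL1, a zinc finger factor, rose by 0.28 ± 0.05 in WT and 0.36 ± 0.05 in IDRmut (edgeR adjusted p 0.00048 and 6.2e-05). RTL1, the retrotransposon-derived gene of the MEG3 locus, had 1 count over both Control libraries, 84 over WT and 16 over IDRmut. Its ratio to Control was 58.9 in WT (95% counting interval 10.3 to 2355) and 14.5 in IDRmut (2.25 to 607), while MEG3 had 3 counts in all. RTL1 passed the count filter only through WT, its highest group, so these values are a description and no support for a rise. It is counted among the rises in both ACK1 groups above. The IDRmut call of RTL1 was lost with DESeq2 and without Control replicate 2.

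**Figure D4:**
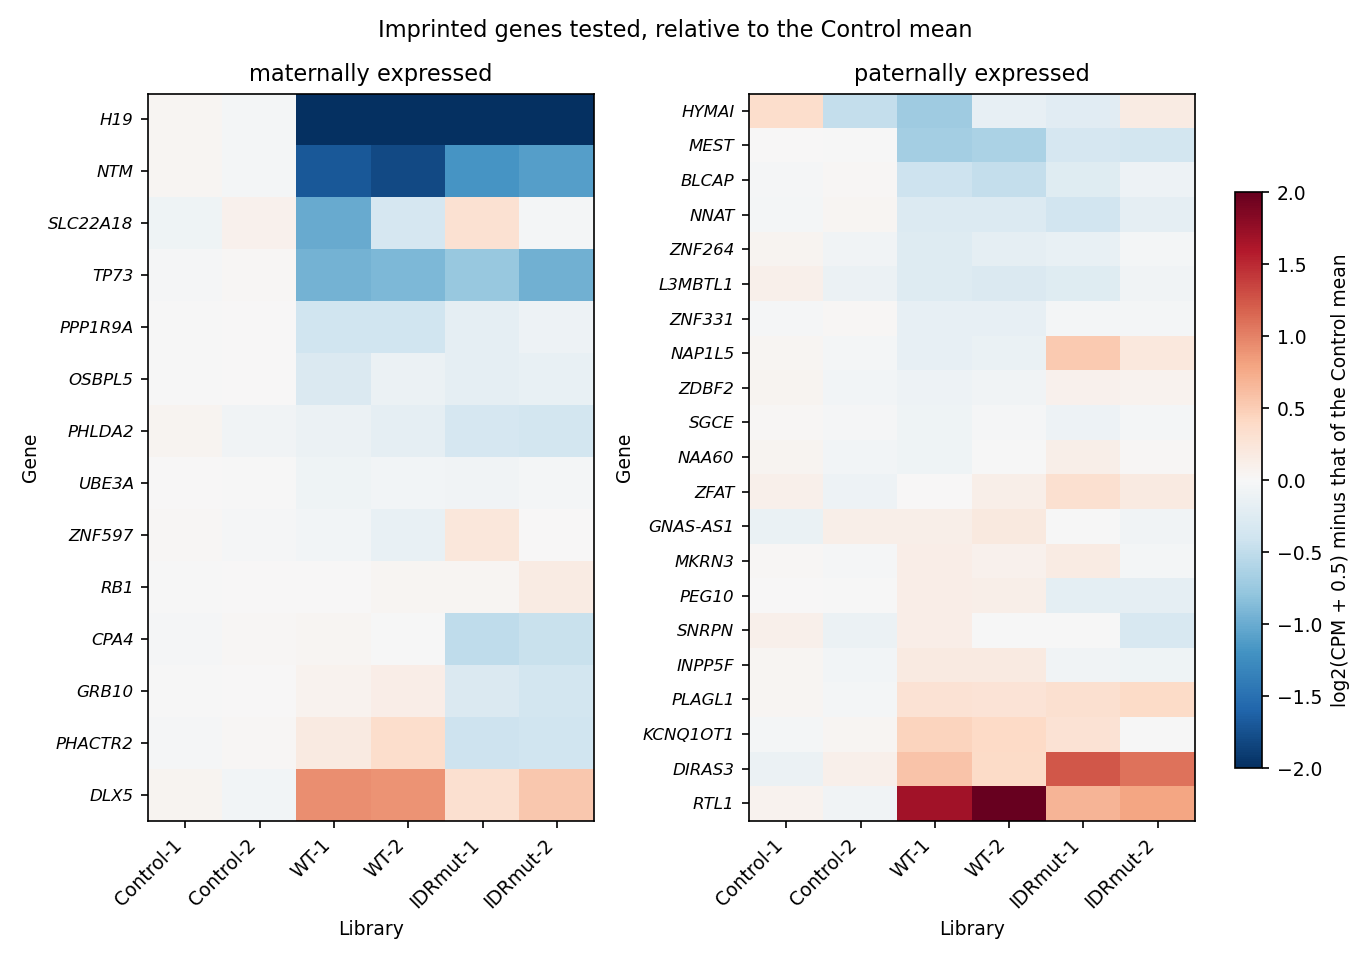
Each row is a tested imprinted gene and each column a library; colour is log2(CPM + 0.5) minus that of the Control mean (blue lower, red higher), for 14 maternally and 21 paternally expressed genes, ending at -2 and 2. H19 and NTM are the bluest rows, RTL1 is the reddest in WT and DIRAS3 in IDRmut.

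IGF signalling, in which IGF2 and GRB10 act, had 15 tested genes of 21 listed. In WT 4 rose and 8 fell and in IDRmut 2 rose and 8 fell, with medians of -0.18 and -0.12. These are 80% and 66.7% of them, against 35% and 31.6% called among all genes. IGFBP5 and IGFBP2, which bind IGFs outside the cell and lie side by side on chromosome 2, fell by 0.87 and 0.82 on the log2 scale in WT. IGFBP5 went from 1468 CPM in Control to 804 in WT and 1304 in IDRmut, and IGFBP2 from 424 to 239 and 412 (means of 2 libraries). The WT over IDRmut differences were -0.70 ± 0.03 and -0.78 ± 0.06 (edgeR adjusted p 2.2e-10 and 1.1e-07). IGFBP3 was highest in IDRmut, at 34.6 and 36.1 CPM against 14.4 and 11.8 in Control. PAPPA, a protease that frees IGFs from binding proteins, fell by 0.72 in WT, with 21.2% of its exon bases overlapped, and STC2, an inhibitor of that protease, rose by 1.76 ± 0.14 in WT and 1.37 ± 0.16 in IDRmut. IGFBP4 fell in WT by 0.33 ± 0.04 on the log2 scale. IGF1R, the receptor for IGF1 and IGF2, was not called in any comparison and changed by 0.02 in WT.

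Factors of imprint maintenance and boundaries were lower more often than higher. The list is mixed and also holds TET1, so the counts give no common direction of function. Of 21 tested, 1 rose and 11 fell in WT, and in IDRmut 2 rose and 11 fell. These are 57.1% and 61.9% of them, against 35% and 31.6% called among all genes, with medians of -0.13 and -0.15. DNMT1, the methyltransferase that copies methylation at replication, stood at 423 and 437 CPM in Control, 385 and 381 in WT, against 357 and 343 in IDRmut. It fell by 0.17 ± 0.04 and 0.30 ± 0.04, and its partner UHRF1 by 0.23 ± 0.05 and 0.37 ± 0.05 on the log2 scale (edgeR adjusted p at most 0.0014 for the 4 values). The cohesin subunit SMC1A fell by 0.39 and 0.32. STAG2, another cohesin subunit, fell in IDRmut by 0.24. TET1, which starts the removal of methylation, went from 19.8 and 20.3 CPM in Control to 13.2 and 12.7 in WT, a fall of 0.64 ± 0.08. CTCF itself, named after its values were seen and with 13% of its exon bases overlapped, was at 135 and 137 CPM in Control, 120 and 119 in WT, against 130 and 131 in IDRmut, with log2 fold changes of -0.19 ± 0.04 (edgeR adjusted p 0.0010) and -0.06 ± 0.04 (edgeR adjusted p 0.27).

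The genes whose pattern was most like that of H19 were sought among 10766 others with at least 5 CPM in Control, by Euclidean distance over the 6 libraries between log2 levels centred on Control. SORCS2, a sorting receptor gene, was closest at a distance of 0.32, followed by the transcription factor gene MAF at 1.02. NOS2, LINC01119, ZNF423, CES1 and PADI3 lay further off, at 1.62 to 2.15. SORCS2 went from 7.91 and 6.56 CPM in Control to 0.784 and 0.731 in WT and 0.884 and 1.05 in IDRmut. These genes were picked for their values, so the likeness is a description with no test.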

How the data were processed

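Polyadenylated RNA of 6 libraries was sequenced, and the authors deposited unnormalized read counts by gene. HISAT2 2.2.1, SAMtools 1.14, featureCounts 2.0.1 and the build GRCh38 are named in the submitters' processing notes. The sources used here do not give the annotation release, the strand setting or the handling of reads on several genes, so overlapping genes could not be separated. Names came from a current table and, for 105 IDs, GENCODE 29; positions and exon overlaps came from GENCODE 29.

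Genes were kept by filterByExpr (minimum count 10, minimum total 15), libraries were scaled with TMM, and group means over all 6 libraries were fitted with edgeR 4.0.16 in R 4.3.3, without covariates. Log2 fold changes are given ± SE and levels as mean ± SD. The 95% intervals of folds come from the fit, and those of counts cover counting error only, since PCR reads are not independent molecules. The procedure was tested on simulated data. DESeq2 1.42.0 was an alternative.

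The members and gene lists were chosen with earlier results of these data known. Genes named were the members, up to 6 per list and 8 within 2 Mb of H19 by adjusted p, the nearest tested genes, partner transcripts, and up to 8 genes like H19; a few genes that this rule or the lists hold are not reported here. COPG2, SLC22A18, INS-IGF2, MIR335, CD81, TSSC4, CTSD and IGF1R were added after their values were seen.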

Additional observations from a re-analysis of the deposited data

Results flagged for a closer look

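The effects of WT and IDRmut against Control pointed in opposite directions for PEG10 and GRB10, and the direct difference between WT and IDRmut was called for both, while GRB10 was not called in WT against Control. That difference was 0.31 on the log2 scale for PEG10 and 0.43 for GRB10, with edgeR adjusted p of 9.6e-07 and 4.1e-07, and both WT libraries were above both IDRmut libraries for each gene. TNK2 was also higher in WT than in IDRmut, by 1.15 on the log2 scale, and its part in this was not tested.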

How the results depend on the processing

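Of 21 fold changes of members, 13 kept their direction and their side of the threshold under all 13 alternatives. Among those kept were both falls of H19 against Control, for which it was chosen, so their stability is no support. Directions turned in 3 uncalled values when 1 library was left out: KCNQ1OT1 in IDRmut against Control ranged from -0.0116 to 0.308, H19 in WT against IDRmut from -0.564 to 0.0262 and NNAT in WT against IDRmut from -0.11 to 0.14, and the turn came without IDRmut replicate 1, IDRmut replicate 2 and IDRmut replicate 1. The cause was not tested. DESeq2 called 3649, 3290 and 2534 genes in WT against Control, IDRmut against Control and WT against IDRmut, where edgeR called 5807, 5237 and 4396. Leaving out 1 library gave 3451 (without Control replicate 1) to 5522 calls in IDRmut against Control and 2590 (without WT replicate 2) to 4761 in WT against IDRmut; a group then holds a lone library that is assumed to vary like the others. With H19 counted, members called were compared over settings that kept both libraries of each group compared. They ranged from 4 to 5 of the tested in WT against Control and from 3 to 5 in WT against IDRmut. In IDRmut against Control they were 5 under each of these settings. H19 was chosen for its fall and was called against Control in each of these, so its calls are no support. In the main fit 35%, 31.6% and 26.5% of all tested genes were called in the 3 comparisons. The labels give every group replicates 1 and 2, and same-numbered libraries did not deviate together (correlations -0.02, -0.02 and -0.03); with the replicate number as a block 5440, 4836 and 3966 genes were called, and of the members' calls PHLDA2 in WT against IDRmut was lost (adjusted p 0.055). Of 112 called comparisons of the 50 other genes considered for naming, 79 held under every alternative and 0 reversed. Upper-quartile scaling gave 3366 rises and 2375 falls in WT against Control, and 3070 and 2213 in IDRmut against Control, where TMM scaling gave 2889 and 2918, and 2591 and 2646. Members were then 3 higher and 2 lower in WT than in Control, with H19 among the lower. Counts of CDKN1C, MEG3 and NNAT were low, which limits their precision.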

Other observations

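CDKN1C belongs to a family of cyclin-dependent kinase inhibitors, of which 3 of 7 were tested. CDKN1A, which encodes p21, went from a mean of 26.8 CPM in Control to 61.3 in WT and 40.4 in IDRmut and rose by 1.20 and 0.59 on the log2 scale. CDKN2D was higher in WT than in IDRmut by 0.55, with an edgeR adjusted p of 0.00030, and CDKN1B had a value of 0.20 in the same comparison, which was lost with DESeq2, without either WT replicate and without IDRmut replicate 2.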
